A study of Mus musculus with 6 samples.

Results

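Glucocorticoid-responsive genes and metallothioneins were examined in retinae of newborn mice lacking Meg2, the protein tyrosine phosphatase encoded by Ptpn9, and in wild-type retinae. The group comprised 10 genes, namely the receptor gene Nr3c1, its targets Fkbp5, Tsc22d3, Sgk1, Zbtb16 and Klf9, the metallothionein genes Mt1 and Mt2, and the metabolic genes Pdk4 and Ppp1r3c. Members were chosen by gene symbol with earlier results of these arrays known, and each was read by the transcript cluster (the probe group covering 1 transcript) with the highest mean over the 6 arrays. All 10 were found among 19938 genes with a cluster of their own, and each had exactly 1 such cluster, so the rule on the mean made no choice. Their values are therefore given as a description.

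Retinae of 3 Meg2 knockout mice were set against those of 3 Meg2 wild-type mice. Animals of both genotypes were at postnatal day 0 and of C57BL/6NTac background and gave 1 array each, from both retinae of an animal together. No treatment is recorded, and the sources used here do not describe the knockout allele. Values are log2 signals from whole-transcript arrays, so a difference of 1 is a doubling of signal, and the number of arrays limits the precision.

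Glucocorticoids such as corticosterone bind the glucocorticoid receptor in the cytoplasm, where it is held by heat shock protein chaperones. The bound receptor enters the nucleus and raises transcription of target genes, several of which feed back on the receptor or on metabolism. Metallothioneins are small cysteine-rich proteins that bind zinc and copper, and their genes respond both to glucocorticoids and, through the transcription factor MTF1, to zinc. In the retina, Muller glia are among the cells known to respond to glucocorticoids.

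Ptpn9 read 9.31, 9.58 and 9.28 on the knockout arrays, against 10.05, 9.93 and 9.94 on the wild-type arrays, with no overlap. The difference of -0.58 (SE 0.087) ran the way of the labels but did not pass correction (limma, adjusted p = 0.437), and the sources used here do not say whether the probes lie in the deleted part. Xist and Y-linked signal, which do not normally occur together in 1 animal, came together on both replicate 2 arrays. Xist read 12.54 on the knockout array and 12.55 on the wild-type array of that number. The Y-linked gene Eif2s3y read 7.66 and 7.76 on the same arrays, above its replicate 1 values of 5.08 on the knockout array and 5.49 on the wild-type array. Replicate 3 arrays had low Xist, at 6.26 in the knockout, against 6.52 in the wild type, and high Eif2s3y, at 10.03, against 9.39. Sex signal thus ran with the replicate number in both genotypes, so the block and any variation that follows the number cannot be told apart from sex or from mixing of animals. The members' differences are also given without both replicate 2 arrays, an alternative chosen after seeing the data. Retinal neuron and progenitor genes marked the tissue as labelled, with summed linear signals of their 16 measured markers from 45863 to 49828 on knockout arrays, against 46340 to 48126 on wild-type arrays.

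Of the 10 members, 8 had a higher mean in the knockout and 2 a lower one, against 50.7% of all 23410 named clusters above 0. The median difference was 0.19 for the members and 0.0012 for all named clusters. The members with the widest gaps were Mt2 at 0.95, Ppp1r3c at 0.90, Mt1 at 0.48 and Klf9 at 0.31. A difference of at least 0.9 in either direction was found for 2 members and for 0.0214% of named clusters, and one of at least 0.3 for 4 members and for 0.5% of named clusters. These limits were set after the values were seen, and the members were selected on known results, so nothing is read from these shares.

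None of the 10 members passed correction over all named clusters (limma, adjusted p = 1.00 for each), where 0% of clusters passed. With the replicate number as a block in the fit, 0 members and 0.00427% of clusters passed, and the lowest adjusted p of a member was 0.489, that of Mt2. At an unadjusted p under 0.05 limma gave 2 members, Ppp1r3c and Mt1, against 3.43% of named clusters. The blocked fit gave 5 members at that level, as Mt2, Klf9 and Fkbp5 joined them, against 8.81% of named clusters. Nothing is read from these counts either, as the members were selected on known results. The 95% intervals of the 8 members other than Mt1 and Ppp1r3c included 0 without the block. In bulk tissue fewer cells of a type cannot be told apart from less RNA per cell.

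**Figure D1:**
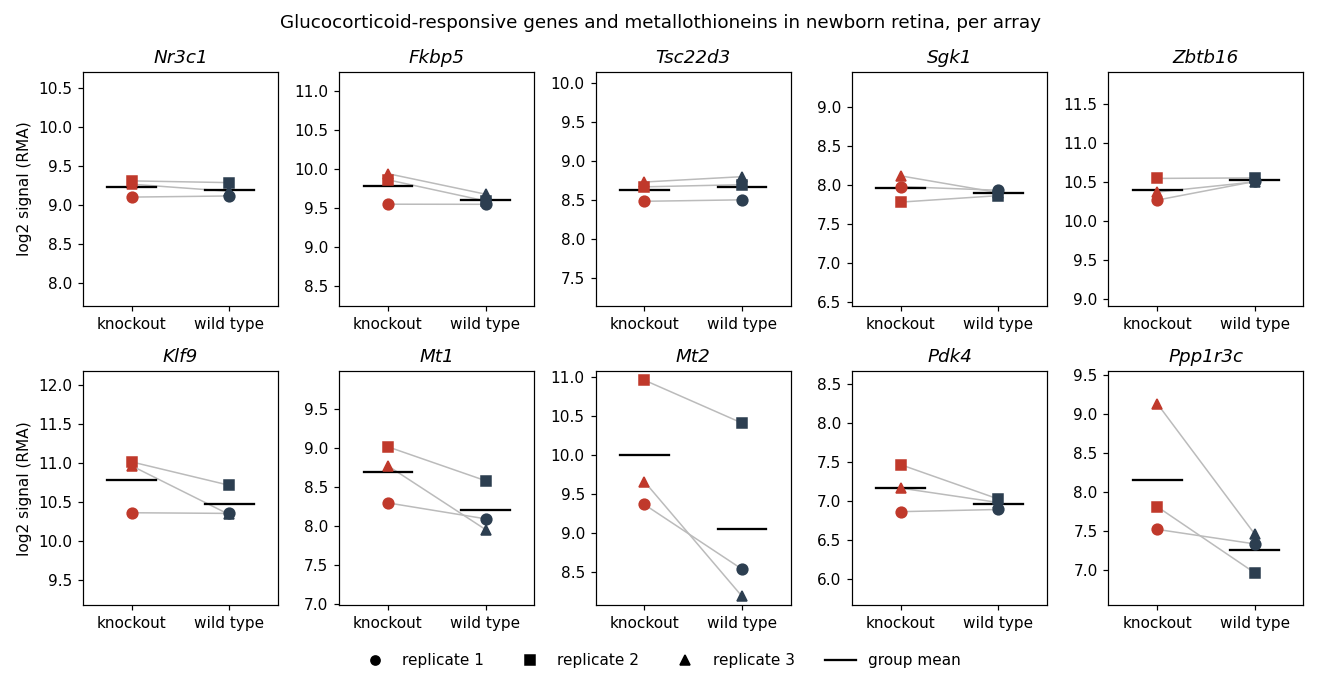
Log2 signal of each of the 10 genes on every array, knockout left and wild type right, with symbols for the replicate number, grey lines joining arrays of 1 number and black bars for group means; each panel spans 3 log2 units. Mt2 and Ppp1r3c spread most, and Ppp1r3c is the 1 gene whose knockout arrays all lie above its wild-type arrays.

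The glucocorticoid receptor gene Nr3c1 read 9.10, 9.31 and 9.27 in the knockout, against 9.12, 9.29 and 9.18 in the wild type. The 6 values interleaved and spanned 0.21 in all. The difference of 0.033 had a 95% interval from -0.14 to 0.21 (limma), which is a fold between 0.908 and 1.15.

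Fkbp5 encodes an immunophilin that binds the receptor's chaperone complex, lowers its affinity for hormone and is itself induced by the receptor. It read 9.55, 9.86 and 9.94 in the knockout, against 9.54, 9.59 and 9.67 in the wild type. Knockout replicates 2 and 3 lay above every wild-type array, and knockout replicate 1 lay among them. The difference was 0.18 (SE 0.10), a fold of 1.13.

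Tsc22d3 encodes the glucocorticoid-induced leucine zipper protein GILZ, an anti-inflammatory mediator. It read 8.48, 8.67 and 8.73 in the knockout, against 8.50, 8.69 and 8.80 in the wild type. Values of the same replicate number were almost equal between genotypes, at -0.019, -0.027 and -0.068, knockout minus wild type, for numbers 1, 2 and 3. The mean difference of -0.038 had an interval from -0.25 to 0.17.

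Sgk1 encodes the serum and glucocorticoid regulated kinase, which acts on ion channels and transporters. It read 7.98, 7.78 and 8.11 in the knockout, against 7.93, 7.86 and 7.90 in the wild type. The knockout arrays held both the highest and the lowest value, and the difference was 0.059 (SE 0.085).

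Zbtb16, the gene of the zinc finger repressor PLZF, was 1 of 2 members with a lower knockout mean. Its knockout arrays read 10.26, 10.54 and 10.37, against 10.50, 10.55 and 10.50 in the wild type. Knockout replicates 1 and 3 lay below every wild-type array and knockout replicate 2 lay among them, for a difference of -0.13 (SE 0.077). Zbtb16 lies on chromosome 9, as does Ptpn9, with 92 protein-coding genes between them in assembly GRCm38.p6. The part of linkage to the targeted gene in this value was not tested.

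Klf9, a Krüppel-like transcription factor induced by glucocorticoids and by thyroid hormone, read 10.37, 11.02 and 10.97 in the knockout, against 10.36, 10.72 and 10.34 in the wild type. Replicate 1 was equal between genotypes within 0.0084, whereas knockout replicates 2 and 3 lay above all wild-type arrays. The difference was 0.31 (SE 0.17), a fold of 1.24.

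Mt1 and Mt2 lie side by side on chromosome 8 with 0 protein-coding genes between them and encode closely related proteins. The sources used here do not say whether the array's probes separate them. Upstream sequences are shown because both genes shared 1 pattern across the arrays and both are targets of MTF1, whose sites are known as metal response elements. The 250 bases before the annotated gene start come from RefSeq's promoter windows of assembly GRCm38.p6, plus strand, with the core of that element (TGCACNC or TGCGCNC, or the reverse complement of either) in capitals. The Mt2 stretch is chr8:94172368-94172617, and that of Mt1 is chr8:94178839-94179088.
Mt2: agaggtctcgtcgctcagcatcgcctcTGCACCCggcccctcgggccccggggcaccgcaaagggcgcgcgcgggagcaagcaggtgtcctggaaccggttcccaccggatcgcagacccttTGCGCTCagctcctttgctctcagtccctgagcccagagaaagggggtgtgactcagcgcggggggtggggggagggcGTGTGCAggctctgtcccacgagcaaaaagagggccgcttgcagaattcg
Mt1: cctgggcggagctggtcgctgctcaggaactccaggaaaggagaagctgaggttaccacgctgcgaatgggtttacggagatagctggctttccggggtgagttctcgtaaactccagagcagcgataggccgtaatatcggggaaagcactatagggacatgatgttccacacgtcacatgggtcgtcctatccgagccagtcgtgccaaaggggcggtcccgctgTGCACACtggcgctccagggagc

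Counted from the gene start, Mt2 held 3 such cores, at -223, -128 and -50, and Mt1 held 1, at -23. At least 1 core was present in 21.4% of 32851 promoter windows of the same length, and at least 2 in 5.17%. The whole windows, of 300 bases, run past the gene start and held 4 cores for Mt2 and 3 for Mt1. At least 3 cores were present in 1.97% of whole windows. Mt1 also matched the palindromic glucocorticoid response element at -94, searched on both strands as GNACA and TGTNC with 3 bases of any kind between them. That motif was found in 0.387% of promoter windows. Of the other members with a window, Ppp1r3c held 1 upstream metal response core, at -140. Sgk1 held 1 only in the whole length of 1 of its windows. Matches describe the letters and show no binding.

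Mt2 had the widest range of the members, 2.77 log2 units. It read 9.36, 10.95 and 9.65 in the knockout, against 8.53, 10.40 and 8.19 in the wild type. Replicate 2 was the highest array in both genotypes, and the wild-type replicate 2 array exceeded knockout replicates 1 and 3. Within each replicate number the knockout array was the higher, by 0.83, 0.55 and 1.47 for numbers 1, 2 and 3.

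Mt2 averaged 9.99 ± 0.85 in the knockout, against 9.04 ± 1.19 in the wild type (SD, n = 3 each). The mean Mt2 difference of 0.95, a fold of 1.93, had an interval from -0.35 to 2.25 without the block (limma) and from 0.58 to 1.32 with it. Without both replicate 2 arrays the Mt2 difference was 1.15 (SE 0.14; limma, adjusted p = 0.327). Its unadjusted p was then 7.21e-05, with knockout arrays at 9.36 and 9.65 and wild-type arrays at 8.53 and 8.19. This exclusion was chosen after seeing the data. It removed the Mt2 values furthest from their group means, 0.96 above for the knockout array and 1.36 above for the wild-type array. The small SE and p therefore owe much to the exclusion, and nothing is read from them. Leaving out 1 array moved the Mt2 difference to 0.47 without knockout replicate 2, 0.52 without wild-type replicate 3 and 1.63 without wild-type replicate 2.

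Mt1 spanned a narrower range, 1.06 log2 units, and kept the array order of Mt2 except that knockout replicate 3 stood above wild-type replicate 2. Knockout arrays stood at 8.30, 9.01 and 8.77, and wild-type arrays at 8.09, 8.58 and 7.96. Knockout replicate 1 lay below wild-type replicate 2, so the genotypes overlapped, yet within each number the knockout was higher, by 0.20, 0.43 and 0.82. Mt1 averaged 8.69 ± 0.37 in the knockout, against 8.21 ± 0.33 in the wild type (SD, n = 3 each). The difference was 0.48 (SE 0.20; limma, adjusted p = 1.00), a fold of 1.40, and it was 0.51 without both replicate 2 arrays.

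Sgk1 and Mt1 were the 2 members with a palindromic response element in their upstream windows, which were at hand for 8 of the 10 genes and numbered 15 because of alternative starts. Shown here is the Sgk1 stretch that carries the element. It is chr10:21993640-21993889 of GRCm38.p6, plus strand, 1 of several annotated starts, with the palindrome at -188 in capitals.
Sgk1: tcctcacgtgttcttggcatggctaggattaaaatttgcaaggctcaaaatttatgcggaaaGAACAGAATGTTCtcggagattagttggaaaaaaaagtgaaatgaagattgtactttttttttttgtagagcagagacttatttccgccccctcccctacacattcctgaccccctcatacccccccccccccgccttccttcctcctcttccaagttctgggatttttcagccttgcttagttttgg

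Pdk4 encodes a kinase that inhibits pyruvate dehydrogenase and so spares glucose, and is induced by glucocorticoids and fasting. It read 6.87, 7.47 and 7.17 in the knockout, against 6.90, 7.03 and 6.98 in the wild type. Knockout replicates 2 and 3 lay above all wild-type arrays and knockout replicate 1 lay below them. The difference of 0.20 (SE 0.13) was 0.078 without both replicate 2 arrays.

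Ppp1r3c encodes PTG, the scaffold that brings protein phosphatase 1 to glycogen and favours glycogen synthesis. It read 7.52, 7.81 and 9.13 in the knockout, against 7.33, 6.96 and 7.46 in the wild type. The groups did not overlap, but the margin between knockout replicate 1 and wild-type replicate 3 was narrow, and knockout replicate 3 stood far above the rest. Ppp1r3c averaged 8.15 ± 0.86 in the knockout, against 7.25 ± 0.26 in the wild type (SD, n = 3 each). The difference was 0.90 (SE 0.35; limma, adjusted p = 1.00), a fold of 1.87. Without knockout replicate 3 it was 0.41.

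**Figure D2:**
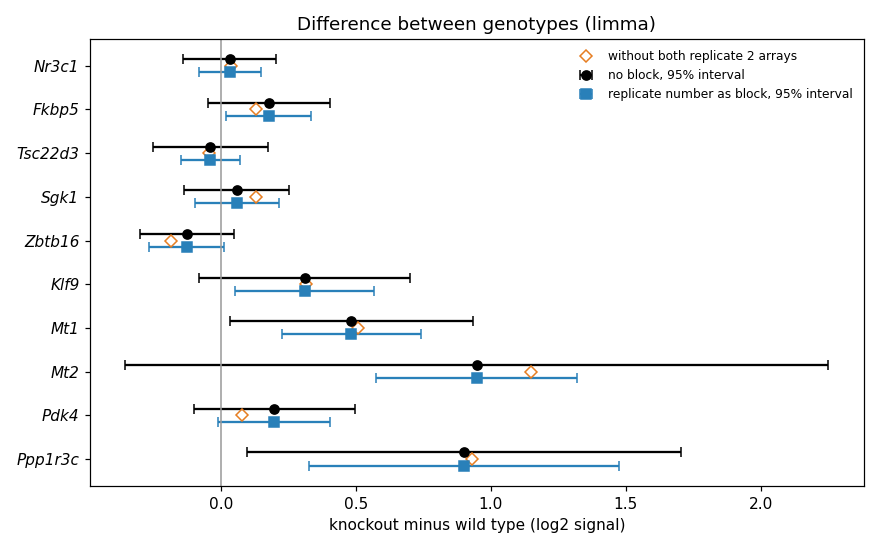
Knockout minus wild-type difference in log2 signal for each of the 10 genes, with 95% intervals from limma without (circles) and with (squares) the replicate number as a block, and the difference without both replicate 2 arrays (diamonds). The Mt2 interval runs from -0.35 to 2.25 without the block and from 0.58 to 1.32 with it.

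Knockout arrays all lay above wild-type arrays in 1 of 10 members, Ppp1r3c, and below them in 0. Named clusters did not overlap in either direction in 8.43%, and with the knockout higher in 4.08%. Within replicate numbers the knockout was higher in 3 of 3 for 5 members, Fkbp5, Mt1, Mt2, Klf9 and Ppp1r3c, against 16.5% of named clusters. It was lower in 3 of 3 for 2 members, Tsc22d3 and Zbtb16, against 15.9%. The members were selected on known results of these arrays, so nothing is read from these shares. The member median of the within-number difference was 0.0048 for replicate 1, 0.28 for replicate 2 and 0.24 for replicate 3, while over all named clusters it was 0.0015, -0.00093 and 0.0031. Single members departed from the small median of replicate 1, with differences there of 0.83 for Mt2 and -0.24 for Zbtb16. Without both replicate 2 arrays, 5 members did not overlap with the knockout higher (Sgk1, Mt1, Mt2, Klf9 and Ppp1r3c), against 14.4% of named clusters. The margin between knockout replicate 1 and the nearest wild-type array was narrow for Klf9 (10.37 against 10.36), Sgk1 (7.98 against 7.93) and Ppp1r3c (7.52 against 7.46). The knockout was higher in both remaining numbers for 6 members, against 28.1%. This exclusion was chosen after seeing the data, so nothing is read from these 2 shares either. The differences without both replicate 2 arrays were 0.93 for Ppp1r3c, 0.32 for Klf9, 0.13 for Fkbp5, 0.13 for Sgk1, 0.038 for Nr3c1, -0.044 for Tsc22d3 and -0.18 for Zbtb16.

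Arrays of the same replicate number agreed in the members about as they did elsewhere. The share of variation within genotypes that followed the replicate number had a median of 74.1% over the 10 members and of 73.3% over all named clusters. With so few arrays per number, a sizeable share arises even where the deviations of the genotypes are unrelated. The share is therefore read only beside that of all named clusters. That share exceeded 90% in 3 members, Tsc22d3 (99.1%), Mt2 (94.8%) and Nr3c1 (92.7%), against 22.2% of named clusters, and was lowest in Sgk1 at 62.5%. Replicate 2 was the highest array in both genotypes for 6 members (Nr3c1, Mt1, Mt2, Zbtb16, Klf9 and Pdk4), against 16.7% of named clusters. For Fkbp5, Tsc22d3 and Ppp1r3c replicate 3 was the highest in both. Replicate 1 was the lowest knockout array in 9 members, all but Sgk1. The shares of named clusters with these last 2 patterns were not counted, so nothing is read from them. Nor is anything read from the count of 6 beside 16.7%, since the members were selected on known results.

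The array profiles therefore fell into more than 1 form. Mt1 and Mt2 peaked in replicate 2 of both genotypes, and Nr3c1 and Tsc22d3 followed the number with little gap between genotypes. Ppp1r3c was highest by far on knockout replicate 3. Its gap between genotypes was 1.67 in that number and 0.85 in replicate 2. Among 262 genes with a cluster above the median signal and a range of at least 0.5, those most like the mean standardised profile of Fkbp5, Tsc22d3, Sgk1, Zbtb16 and Klf9 were Rny1 (Pearson's r = 0.97 over the 6 arrays), Snord42b (0.95), Pik3ip1 (0.95), Epha2 (0.93) and Hhip (0.93). The 5 genes behind that profile correlated with it unevenly, from 0.14 for Sgk1 to 0.90 for Fkbp5. These r values share the same 6 arrays and the pairing by number.

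A second profile, the mean of Mt1 and Mt2, was drawn up after the values were seen. Of the same 262 genes Per1 came closest (r = 0.98 over 6 arrays) and Slc30a1 next (0.98). Per1, a clock gene and glucocorticoid receptor target, read 9.95, 11.22 and 10.81 in the knockout, against 9.71, 10.63 and 9.55 in the wild type. Slc30a1 encodes the zinc exporter ZnT1, a target of MTF1, and read 8.48, 8.87 and 8.74 in the knockout, against 8.36, 8.79 and 8.22 in the wild type. Since both were picked for their likeness to Mt1 and Mt2, their peak in replicate 2 and their higher knockout arrays follow from the choice. The mean differences were 0.69 (SE 0.34) for Per1 and 0.24 (SE 0.15) for Slc30a1, and 0.75 and 0.32 without both replicate 2 arrays. Over the 4 arrays then left, Per1 ranked 13 of 262 in likeness (r = 0.95) and Slc30a1 ranked 3 (r = 0.99). Neither passed correction (limma, adjusted p = 1.00 each). The upstream stretch of Slc30a1, chr1:191906531-191906780 of GRCm38.p6, plus strand, held 1 metal response element core, at -43 on the minus strand, shown here in capitals beside those of the metallothioneins. The whole window of Slc30a1, of 300 bases, held 2 cores. Per1 held 1, at -69 of 1 of its 2 windows.
Slc30a1: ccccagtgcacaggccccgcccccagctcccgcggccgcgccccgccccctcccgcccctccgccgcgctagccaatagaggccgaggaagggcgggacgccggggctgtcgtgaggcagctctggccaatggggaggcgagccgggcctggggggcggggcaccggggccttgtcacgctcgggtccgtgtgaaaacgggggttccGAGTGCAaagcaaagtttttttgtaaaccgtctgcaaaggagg

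**Figure D3:**
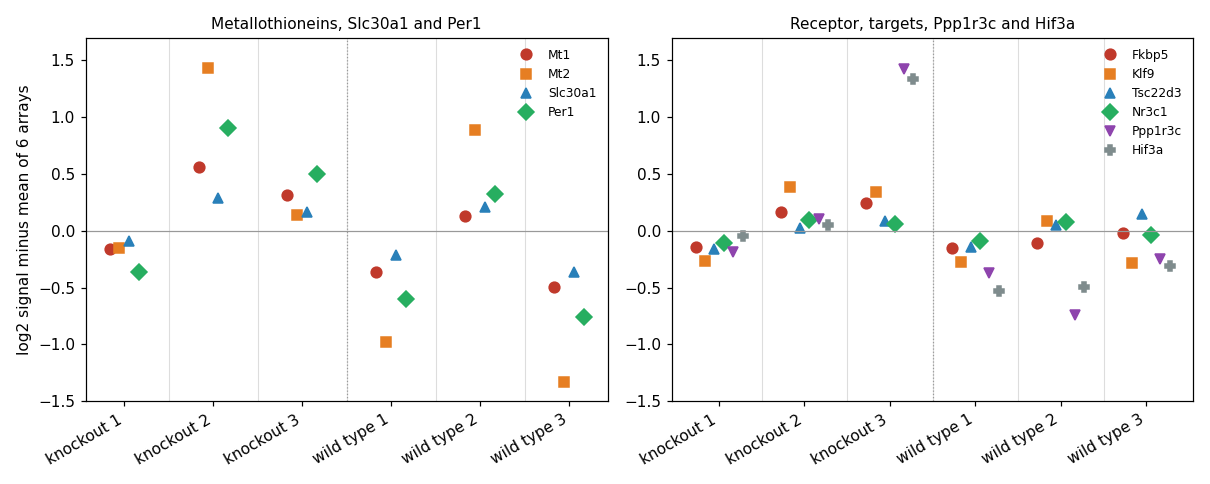
Log2 signal minus the mean of the 6 arrays, per array, for Mt1, Mt2, Slc30a1 and Per1 (left) and for Fkbp5, Klf9, Tsc22d3, Nr3c1, Ppp1r3c and Hif3a (right), knockout arrays left of the dotted line and wild-type arrays right of it. The left panel shows replicate 2 highest in each genotype, and the right panel shows Ppp1r3c and Hif3a far above the rest on knockout replicate 3.

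Other glucocorticoid-induced genes, 38 measured of 40 listed, gave 0 past correction in either direction (limma, with and without the block). Of them 28 lay above 0 and 10 below, with a median of 0.072, and 4 higher and 0 lower had an unadjusted p under 0.05, against 3.43% of named clusters in either direction. With the block these counts were 9 and 0, against 8.81%. Arrays did not overlap with the knockout higher in 7, against 4.08% of named clusters, and with it lower in 0. This list and those below were also chosen with earlier results of these data known, so nothing is read from such shares. Hif3a, of the hypoxia-inducible factor family, read 9.36, 9.46 and 10.75 in the knockout, against 8.88, 8.91 and 9.10 in the wild type. It resembled Ppp1r3c in its high knockout replicate 3 array. Bcl6, a transcriptional repressor, read 7.20, 7.24 and 7.67 in the knockout, against 7.16, 7.08 and 7.11 in the wild type. Glutamine synthetase (Glul), a glucocorticoid-inducible enzyme of Muller glia and the gene of this list with the highest signal, differed by 0.055 (SE 0.066).

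Genes of the receptor's chaperones, cofactors and steroid handling, 22 measured of 26, had 11 above 0 and 11 below, with a median of -0.0011 and 0 past correction (limma; unadjusted p under 0.05 for 3 higher and 0 lower, against 3.43% of named clusters in either direction). Arrays did not overlap with the knockout higher in 3, against 4.08% of named clusters, and with it lower in 0. Crhbp, which binds corticotropin-releasing hormone, read 9.11, 9.48 and 9.28 in the knockout, against 8.70, 9.08 and 8.76 in the wild type. Its replicate 2 arrays were the highest of each genotype, and its blocked fit gave an adjusted p of 0.197 (limma). Abcb1a, an efflux pump of vessel walls that carries steroids, differed by 0.27 (SE 0.094), and the chaperone gene Hspa8 by -0.022 (SE 0.059).

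Metal handling genes, 26 measured of 26, had 13 above 0 and 13 below, with a median of 0.0022 and 0 past correction (limma; unadjusted p under 0.05 for 0 higher and 1 lower, against the same 3.43%). Mt3, the brain metallothionein, differed by -0.054 (SE 0.080), and Mtf1, the gene of the metal-sensing factor, by 0.014 (SE 0.083). The zinc importer Slc39a10 differed by -0.23 (SE 0.091) and the copper chaperone Atox1 by -0.10 (SE 0.069). Whether these genes differ from Mt1 and Mt2 was not tested.

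Pyruvate dehydrogenase and fatty acid switch genes, 18 measured of 21, had 9 above 0 and 9 below, a median of 0.0023 and 0 past correction (limma; unadjusted p under 0.05 for 0 in either direction, against 3.43%). Pdha1, a subunit of pyruvate dehydrogenase itself, differed by -0.069 (SE 0.060) and the phosphatase gene Pdp1 by 0.033 (SE 0.076). Glycogen metabolism genes, 25 measured of 26, had 12 above 0 and 13 below, a median of -0.0060 and 0 past correction (limma; unadjusted p under 0.05 for 1 higher and 0 lower, against 3.43%). Phkb, a subunit of phosphorylase kinase, differed by -0.14 (SE 0.065), and the phosphatase 1 catalytic genes Ppp1ca and Ppp1cc by -0.084 (SE 0.057) and 0.082 (SE 0.055).

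**Figure D4:**
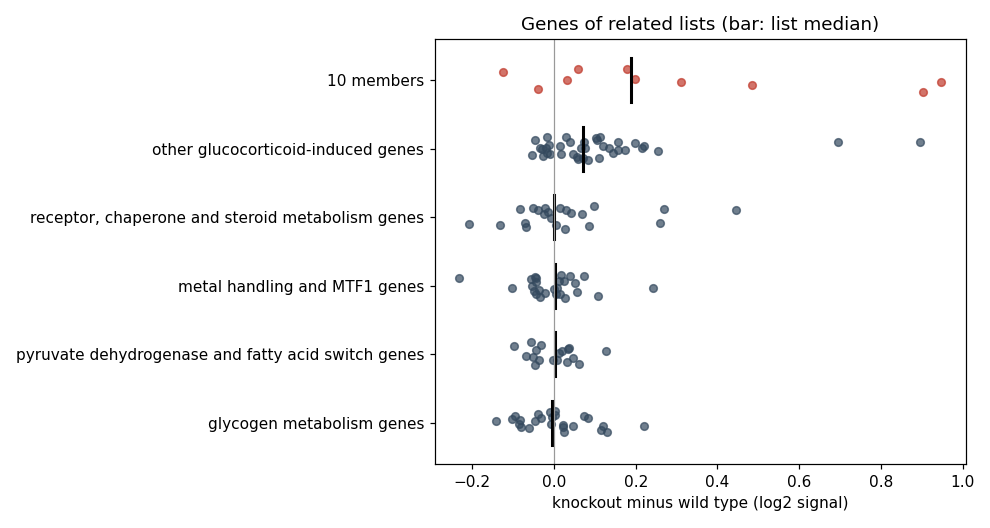
Knockout minus wild-type difference in log2 signal for the 10 members (top) and for the measured genes of 5 related lists, 1 point a gene, with list medians as bars. The medians of the lists lie between -0.0060 and 0.072, and that of the 10 members at 0.19.

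Most marker lists had more genes above 0 than the 50.7% of all named clusters, though their summed signals overlapped between genotypes. Retinal neuron and progenitor markers had 11 of 16 above 0 (median 0.0089). Of all these lists 0 markers passed correction (limma). At an unadjusted p under 0.05, 4 endothelial, 3 microglia, 2 glial, 1 lens and 1 pigment cell marker were higher. At that level 1 blood marker was lower, against 3.43% of named clusters in either direction. Endothelial and pericyte markers had 14 of 16 above 0 (median 0.12), and their summed linear signal ran from 7130 to 8748 on knockout arrays, against 7267 to 8118 on wild-type arrays. Muller glia and astrocyte markers had 8 of 10 above 0 (median 0.051), with sums from 24021 to 28154 on knockout arrays, against 23040 to 24446 on wild-type arrays. Lens markers had 11 of 13 above 0 (median 0.082, sums 3136 to 3633 on knockout arrays, against 2951 to 3329 on wild-type arrays), microglia markers 7 of 10 (median 0.070, 2531 to 3069 on knockout arrays, against 2468 to 2648 on wild-type arrays) and pigment cell markers 8 of 10 (median 0.049, 1694 to 2154 on knockout arrays, against 1683 to 1861 on wild-type arrays). Blood markers had 1 of 6 above 0 (median -0.068, 1178 to 1510 on knockout arrays, against 1341 to 1524 on wild-type arrays). The mean log2 signal of the endothelial and pericyte markers was 7.99, 7.78 and 8.07 on knockout replicates 1, 2 and 3, against 7.83, 7.72 and 7.74 in the wild type. It was thus lowest on replicate 2 of both genotypes and highest on knockout replicate 3. The means of the glial (9.57), microglial (8.07) and lens (7.96) markers were also highest on knockout replicate 3, the array on which Ppp1r3c and Hif3a stood out. So were those of retinal neuron and progenitor markers (11.13) and of the metal handling genes (9.34), so this was not particular to those cell types. Pigment cell markers were highest on knockout replicate 1 (7.48) and blood markers on wild-type replicate 1 (7.29). The endothelial genes Cdh5 and Emcn had their widest within-number gaps in replicate 3, 1.02 and 0.98. Both were picked from the 16 markers after their values were seen and do not stand for the list. The cells that carry these transcripts cannot be separated in whole retina, and the part of these markers in the members' differences was not tested. The lists are named for cell types, and whether those cells, rather than progenitors, carry the transcripts at postnatal day 0 was not tested.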

How the data were processed

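RNA of 3 knockout and 3 wild-type retinae was measured on Affymetrix Mouse Gene 1.0 ST arrays. Each transcript cluster has a log2 signal, which the authors made with Affymetrix Expression Console and RMA per the submitters' processing notes. RMA corrects background, sets all arrays to 1 distribution and summarises probes, so a change common to most transcripts would not show. Array medians lay between 7.84 and 7.91. The sources used here give no scan date or slide.

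A platform annotation named exactly 1 gene for 21789 of 35557 clusters and several for 1621. All 23410 named clusters were tested with no filter on dim signal. Of the members, 10 lay above the 25th percentile of mean signal and 6 above the median.

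Differences are knockout minus wild type from limma 3.58.1 (lmFit, eBayes) in R 4.3.3, with Benjamini-Hochberg adjustment over all named clusters, a threshold of 0.05, and 95% intervals and SE from the moderated fit. The script was tested on simulated arrays. An exact permutation test of 3 against 3 cannot go below p = 0.1, so none was used for single genes. The members and lists were chosen with earlier results of these data known. Named list genes were the 2 largest non-overlapping differences and the highest signal of each list. Mt3, Mtf1, Per1, Slc30a1, Irs2, Pnpla2, Cdh5 and Emcn were singled out after their values were seen.

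Replicate numbers come from the titles, which do not say what they mark; Xist and Y-linked signal followed them. Deviations from group means correlated at 0.476, 0.485 and 0.455 between arrays of number 1, 2 and 3, above the 0.1 taken as pairing, so the blocked fit was computed throughout. In Python 3.11.15, the share of variation following the number was the sum of squares between numbers over that within genotypes, and motifs were counted in RefSeq promoter windows. Alternatives were the block, 2 rescalings, 3 variance settings, 2 signal filters, every cluster of the table, and arrays left out.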

Additional observations from a re-analysis of the deposited data

How the results depend on the processing

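The replicate block moved the count of named clusters past correction to 1, against 0 without it, and changed no other adjusted call. The members and the 5 related lists kept a count of 0 under all 16 alternatives. Of 156 alternative member differences 151 kept their direction. The other 5 came from leaving out 1 array: Tsc22d3 was 0.034 without knockout replicate 1 and 0.028 without wild-type replicate 3 (range -0.12 to 0.034), Nr3c1 was -0.0087 without knockout replicate 2 and -0.0055 without wild-type replicate 1 (range -0.0087 to 0.095), and Sgk1 was -0.020 without knockout replicate 3 (range -0.020 to 0.15). Their causes were not tested. With 1 array left out, Mt1 ran from 0.32 to 0.68, Klf9 from 0.19 to 0.52, Fkbp5 from 0.10 to 0.30, Pdk4 from 0.048 to 0.35, Ppp1r3c from 0.41 to 1.22 and Zbtb16 from -0.20 to -0.062. Named clusters at an unadjusted p under 0.05 numbered 2063 with the block, 1298 without knockout replicate 1 and 1221 without knockout replicate 2, against 803 of 23410. They numbered 431 of the 11705 above the median signal, a smaller set, so that count is not like the 803. Members at that level numbered 5 with the block or without knockout replicate 1, 0 with every cluster in the fit or without wild-type replicate 1, and 1 without knockout or wild-type replicate 3, against 2. The median filter left 6 members and removed Mt1 and Ppp1r3c, so its count of 0 was set by the filter. Rescaling gave a replicate share of 73.2% (median centring) and 73.1% (cyclic loess). Averaging several clusters of a gene could not be run, since each member had 1.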

Other observations

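Further genes resembled the metallothioneins across the arrays. After Per1 and Slc30a1, the closest of the 262 genes to the mean of Mt1 and Mt2 were Irs2 (r = 0.96 over 6 arrays), an adaptor of the insulin receptor, Pnpla2 (0.95), the adipose triglyceride lipase, and Crhbp (0.93). Irs2 read 9.64, 10.14 and 9.94 in the knockout, against 9.56, 9.87 and 9.58 in the wild type. Pnpla2 read 9.24, 9.75 and 9.51 in the knockout, against 9.28, 9.44 and 9.11 in the wild type. Both were picked for this profile, and without both replicate 2 arrays, an alternative chosen after seeing the data, Irs2 ranked 20 (r = 0.91 over 4 arrays), Pnpla2 22 (0.89) and Crhbp 12 (0.95). Neither Irs2 nor Pnpla2 passed correction (limma, adjusted p = 1.00 each).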
